A study of Mus musculus with 77 samples.

Results

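The miRNAs bound to Argonaute 2 (AGO2) were measured in the BNST (bed nucleus of stria terminalis), a basal forebrain region that regulates anxiety, and were compared between mice that were susceptible and mice that were resilient to chronic social defeat stress (CSDS). Members were all 788 miRNA entries of the AGO2 miRNA data in 3 susceptible and 5 resilient pools, that is 8 of the 77 samples of the series. All pools came from male C57BL/6Crl mice of 8 weeks, each pool held the BNST of 3 mice, and tissue was taken 6 to 8 days after the last defeat. Resilient and susceptible mice had both gone through the defeat sessions with an aggressive resident mouse. Susceptible mice had a social interaction ratio more than 1 SD below the control mean, and the mice at the extremes of the behavior were chosen, so the groups are the ends of a range of defeated animals. Control mice of the same strain were not defeated, and their 5 pools entered the fit and are given beside the values. The pools were labelled susceptible 1, 2 and 4 and resilient 1 to 5, and a miRNA library of susceptible pool 3 was not analysed here. The question was which AGO2-bound miRNAs separate the behavioral outcomes of one and the same stress.

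miRNAs are short RNAs that are cut from a hairpin with 2 arms, of which the 5p or the 3p strand is loaded into an Argonaute protein. The loaded strand finds mRNAs mainly through its seed, bases 2 to 8 from the 5′ end, and the complex lowers the translation and the stability of those mRNAs. miRNAs that share a seed form a family with overlapping targets. AGO2 immunoprecipitation thus samples the loaded pool of miRNAs, and each value is the share of a miRNA among all AGO2-bound miRNA reads of a pool, given as log2 CPM, the log2 of its reads after scaling every pool to a common library size. In tissue pools, fewer cells of a type and less RNA per cell cannot be told apart.

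The sequences of the miRNAs on which the comparison turns are shown first, because the seed decides which of them belong together. Each is the mature miRNA of mouse, 5′ to 3′, from the RefSeq annotation of GRCm38.p6, with the seed in capitals. 686 of the 788 entries and 26 of the 31 differentially expressed (DE) entries described below matched such a sequence. The first set was higher in susceptible pools, miR-128-3p in only 1 of its 2 entries.
miR-485-3p: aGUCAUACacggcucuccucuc
let-7c-5p: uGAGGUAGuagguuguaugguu
let-7d-3p: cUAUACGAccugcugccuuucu
miR-672-5p: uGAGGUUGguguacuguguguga
miR-128-3p: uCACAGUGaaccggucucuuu
miR-1198-5p: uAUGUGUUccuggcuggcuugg
The second set was lower in susceptible pools, and it is shown with the relatives miR-30a-3p and miR-146a-5p that share a seed with one of its members.
miR-30e-3p: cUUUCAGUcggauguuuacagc
miR-30a-3p: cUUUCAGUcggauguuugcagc
miR-872-5p: aAGGUUACuuguuaguucagg
miR-146b-5p: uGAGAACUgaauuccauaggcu
miR-146a-5p: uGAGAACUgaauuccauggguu
miR-384-5p: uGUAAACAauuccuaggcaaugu
miR-488-3p: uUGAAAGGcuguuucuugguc
miR-328-3p and miR-126a-5p were also DE at high levels. The third set is the miR-99/100 seed family, which the study named for this nucleus as miR-99b/100, and whose calls depended on how 1 pool was treated.
miR-99a-5p: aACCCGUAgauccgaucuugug
miR-99b-5p: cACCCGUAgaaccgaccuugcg
miR-100-5p: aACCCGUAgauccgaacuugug

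31 of the 788 entries, or 3.93%, were DE between susceptible and resilient pools, with a fold change of 1.2 or more and an unadjusted p under 0.05 in limma. Of these, 16 (2.03%) were higher and 15 (1.9%) were lower in susceptible pools. 36 entries had an unadjusted p under 0.05, and 0.05 of 788 entries is 39.4. None had an adjusted p under 0.05 in limma with Benjamini-Hochberg adjustment, where the smallest was 0.279. The log2 levels of the 3 susceptible and the 5 resilient pools did not overlap for 22 entries (2.79%), 11 higher and 11 lower, and 13 of these were DE. Of the 56 possible splits of these pools, a share of 0.0179 separates the groups in each direction. Lack of overlap is therefore a description and adds no evidence to the limma fit of the same values. Nothing in the labels says more than that the pools were separate samples, so p-values measure the spread between these pools.

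Depth was 3751598 to 6344214 miRNA reads in susceptible, 3839603 to 9404828 in resilient and 3173294 to 4565205 in control pools. How small a difference could be seen went with the level of an entry. Of the 171 entries with a mean of at least 8 log2 CPM, 167 had a 95% confidence interval of the difference within 2-fold in either direction. The median SE was 0.13 log2 units for these abundant entries and 0.91 for the 358 entries under 3 log2 CPM. DE entries were therefore small changes of abundant miRNAs or large changes of miRNAs with few reads. Among the 171 abundant entries 14 were DE, with fold changes of 1.21 to 1.52. A further 5 DE entries had means between 3 and 8, and 12 lay under 3.

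**Figure D1:**
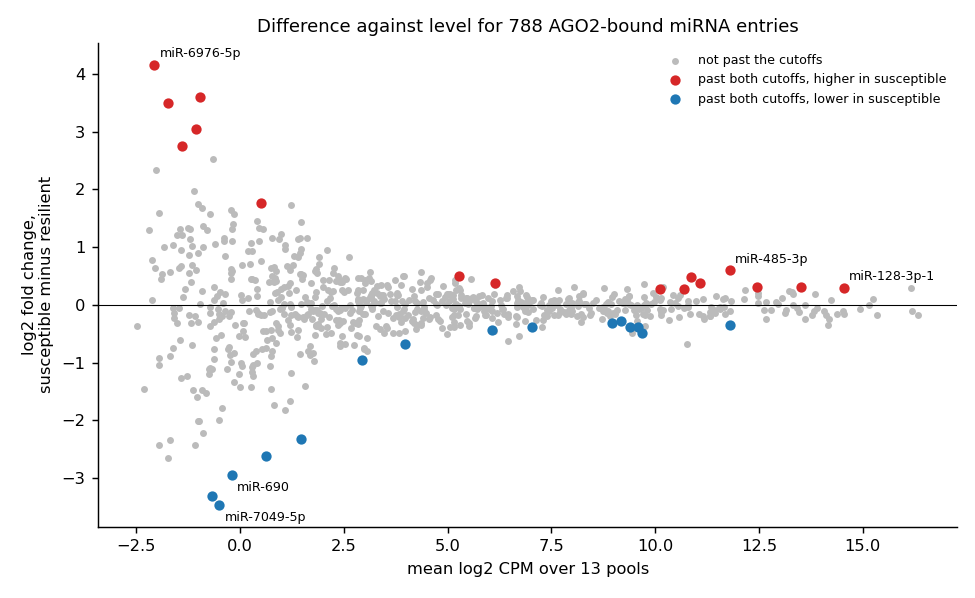
The log2 fold change (susceptible minus resilient, vertical axis) is plotted against the mean log2 CPM over 13 pools (horizontal axis) for 788 miRNA entries, with DE entries in red (higher in susceptible) or blue (lower). The 14 DE entries at a mean of 8 or more lie within 0.60 log2 units of 0, and those under 3 lie between 0.95 and 4.16 units from it.

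The DE miRNA with the smallest p was miR-485-3p, which is known to act on synaptic transcripts and to restrain excitatory synapses. Its mature sequence lies at chr12:109734946-109734967 on the plus strand (GRCm38), in an exon of the long noncoding RNA Mirg in the imprinted Dlk1-Dio3 region. In susceptible pools 1, 2 and 4 it stood at 12.25, 11.81 and 11.73 log2 CPM. In resilient pools 1 to 5 it stood at 11.15, 11.31, 11.65, 11.42 and 11.12. Every susceptible pool was above every resilient pool, although susceptible pool 4 exceeded resilient pool 3 by little. The difference was 0.60 ± 0.14 (log2, SE), or 1.52-fold (limma adjusted p = 0.279, Benjamini-Hochberg). The two-sided exact permutation p was 0.0179, the smallest that 56 splits of 3 against 5 pools can give. Control pools averaged 12.17 ± 0.14 (SD, n = 5). The susceptible minus control difference was -0.24 and the resilient minus control difference was -0.84, with the same control pools in both. The 5p strand of the same hairpin did not pass the test, with a susceptible minus resilient difference of -0.03 log2 units (95% interval -0.27 to 0.20). Of the 93 entries from the Dlk1-Dio3 region miR-485-3p alone was DE, beside 3.93% of all entries, and their median difference was 0.03, against -0.02 over all entries.

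let-7c-5p belongs to the let-7 family, which promotes differentiation and is held back in stem cells by Lin28. The data list its identical mature strand in 2 entries, for hairpins on chr16 and chr15, and reads of a mature strand cannot be told apart between hairpins. The mature strand lies at chr16:77599672-77599693, in an intron of Mir99ahg, and at chr15:85706616-85706637, in an exon of Lncppara. The entry let-7c-5p-1 read 10.95, 11.09 and 11.25 log2 CPM in the susceptible pools. The resilient pools read 10.46, 10.65, 10.41, 10.69 and 10.89, all below the lowest susceptible pool. The difference was 0.48 ± 0.12 (limma adjusted p = 0.302, Benjamini-Hochberg), with an exact permutation p of 0.0179. The second entry, let-7c-5p-2, was higher by 0.28 ± 0.12 (exact permutation p = 0.0536), with susceptible pools at 10.04, 10.26 and 10.32 and resilient pools from 9.75 to 10.10. With both entries summed, let-7c-5p was higher by 0.41 ± 0.12 and the groups again did not overlap. These 2 entries of 1 mature strand were the only DE ones with the let-7 seed, beside 3.93% of all entries. Summed over all 12 entries with that seed, the difference was 0.13 ± 0.11 and was not DE. Of the 12 entries 9 had a positive difference, and their median was 0.20 over all 12, against -0.02 over all 788 entries. The most abundant of them, let-7e-5p at 16.02 to 16.47 in susceptible and 15.58 to 16.16 in resilient pools, differed by 0.28 ± 0.14 (exact permutation p = 0.179), and let-7d-5p differed by 0.09 ± 0.10.

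let-7d-3p is the opposite strand of the let-7d hairpin, and its own seed is not that of the let-7 family. Its mature sequence lies at chr13:48536024-48536045 (minus strand), in an exon of the noncoding RNA 6720427I07Rik. It reached 12.61, 12.48 and 12.34 log2 CPM in susceptible pools. Resilient pools held 11.99, 12.15, 12.22, 12.29 and 12.19. The groups did not overlap, although susceptible pool 4 was only slightly above resilient pool 4. The difference was 0.31 ± 0.10 (limma adjusted p = 0.52, Benjamini-Hochberg), with an exact permutation p of 0.0179. Controls were above both groups at 12.74 ± 0.06 (SD, n = 5), so the susceptible minus control difference was -0.26 and the resilient minus control difference -0.57. Without susceptible pool 1 let-7d-3p was no longer DE.

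miR-672-5p is encoded on the X chromosome (104116228-104116250, minus strand) in an intron of Nexmif. It stood at 11.34, 11.42 and 11.12 log2 CPM in susceptible pools and at 10.93, 10.90, 10.78, 11.19 and 10.80 in resilient pools. Resilient pool 4 was above susceptible pool 4, and the other resilient pools were below all 3 susceptible pools. The difference was 0.37 ± 0.11 (limma adjusted p = 0.505, Benjamini-Hochberg), with an exact permutation p of 0.0536.

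The other 3 DE miRNAs of high level in this direction overlapped between groups. miR-128-3p, a brain-enriched miRNA that dampens neuronal excitability, is listed for 2 hairpins. The entry miR-128-3p-1, whose mature sequence lies at chr1:128202404-128202424 in an intron of R3hdm1, was higher by 0.30 ± 0.14 (exact permutation p = 0.0714), at 14.77, 14.56 and 14.67 in susceptible and 14.10 to 14.59 in resilient pools. The second entry of the same mature strand moved by -0.25 ± 0.12 (exact permutation p = 0.125), so the entries had opposite signs. With both summed, the difference of miR-128-3p was 0.25 ± 0.13 and was not DE. miR-328-3p was higher by 0.31 ± 0.15 (exact permutation p = 0.196) and miR-1198-5p, from an intron of Gripap1, by 0.28 ± 0.13 (exact permutation p = 0.161). The call of miR-1198-5p ended in 14 of 25 alternatives and that of miR-128-3p-1 in 6 of 24, with the same sign throughout.

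**Figure D2:**
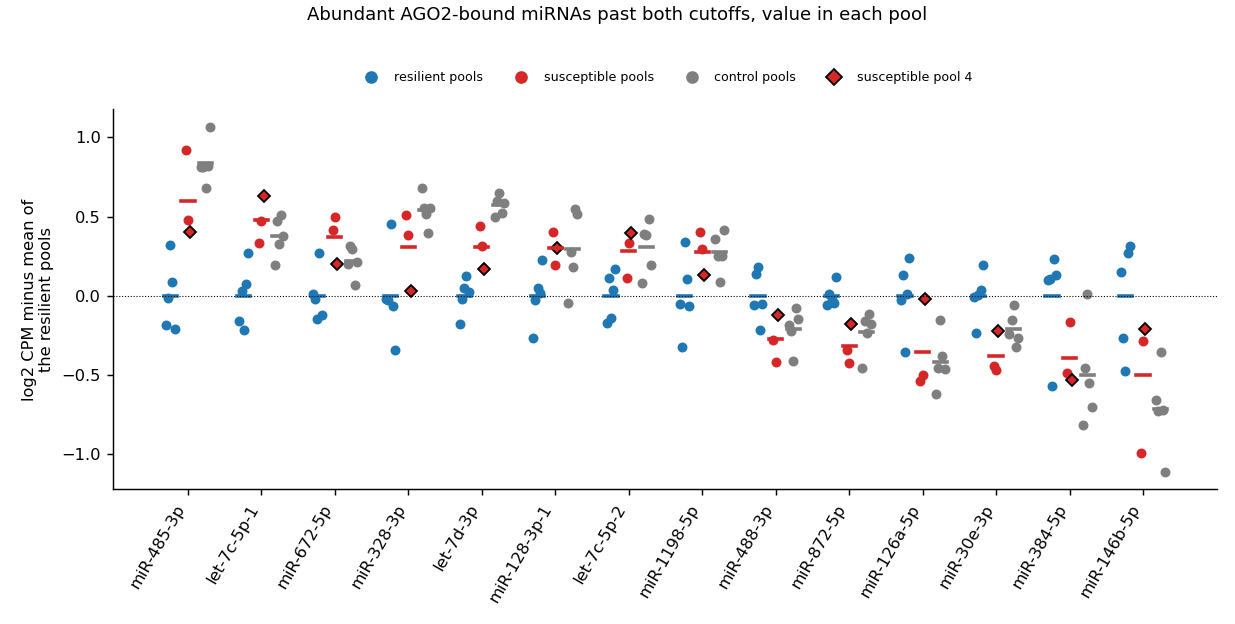
Each column is 1 of the 14 DE miRNA entries with a mean of at least 8 log2 CPM, and each point is 1 pool, plotted as its log2 CPM minus the resilient mean (vertical axis), with susceptible pools in red, resilient in blue, control in gray, susceptible pool 4 as a diamond and group means as bars. miR-485-3p, let-7c-5p-1, let-7d-3p and miR-872-5p have no overlap between susceptible and resilient pools. The control mean lies on the susceptible side of the resilient mean in all 14 columns, which were chosen for their difference on these same pools.

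Among the abundant miRNAs that were lower in susceptible pools, miR-30e-3p had the smallest p. It is the 3p strand of a member of the miR-30 family, from an intron of Nfyc (chr4:120772618-120772639, minus strand). Susceptible pools stood at 9.30, 9.28 and 9.52 log2 CPM and resilient pools at 9.74, 9.51, 9.75, 9.78 and 9.94. The groups met at one point, where susceptible pool 4 was just above resilient pool 2. The difference was -0.38 ± 0.11 (limma adjusted p = 0.505, Benjamini-Hochberg), with an exact permutation p of 0.0357. The 5p strand of the hairpin, more abundant at 13.97 to 14.16 in susceptible pools, differed by -0.18 ± 0.13 and did not pass.

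miR-872-5p, from an intron of Ift74 (chr4:94665167-94665187), stood at 8.78, 8.71 and 8.95 log2 CPM in susceptible and at 9.07, 9.14, 9.10, 9.09 and 9.25 in resilient pools. All susceptible pools were below all resilient pools. The difference was -0.31 ± 0.11 (limma adjusted p = 0.621, Benjamini-Hochberg), with an exact permutation p of 0.0179. Without susceptible pool 2 it was no longer DE.

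miR-146b-5p, which is induced by inflammatory signals and limits Toll-like receptor signaling, lies in an intron of Mfsd13a on chr19 (46342790-46342811). It was at 9.08, 9.79 and 9.86 log2 CPM in susceptible and at 10.23, 9.81, 9.60, 10.34 and 10.39 in resilient pools. The groups overlapped, since resilient pool 3 was below 2 of the 3 susceptible pools. The difference was -0.50 ± 0.20 (two-sided exact permutation p = 0.125), and it was not DE without susceptible pool 1, resilient pool 4 or resilient pool 5, or without a mean-variance trend, with differences from -0.69 to -0.25. miR-126a-5p, from the endothelial hairpin of Egfl7, was at 11.49, 11.53 and 12.02 against 11.68 to 12.27 in resilient pools, a difference of -0.35 ± 0.14 (exact permutation p = 0.107). Its call ended in 5 of 24 alternatives, among them without susceptible pool 1, susceptible pool 2 or resilient pool 5. The other strand of that hairpin, miR-126a-3p, differed by -0.18 ± 0.14 and did not pass. miR-384-5p, which has the seed of the miR-30 5p strands, differed by -0.39 ± 0.18 (exact permutation p = 0.143), and miR-488-3p, from an intron of the neuronal gene Astn1, by -0.27 ± 0.12 (exact permutation p = 0.0714).

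Controls, which had not been defeated, served as a reference for both groups. For 22 of the 31 DE entries the control mean lay between the susceptible and the resilient mean. It lay above both for 6 entries, all of them higher in susceptible than in resilient pools, and below both for 3 entries, all of them lower. The DE entries were chosen for a gap between these same susceptible and resilient pools, which by itself favors a control mean between them. The counts are therefore descriptions. miR-146b-5p had a susceptible minus control difference of 0.22 and a resilient minus control difference of 0.72. For miR-30e-3p these were -0.17 and 0.21, for let-7c-5p-1 0.10 and -0.38, and for miR-672-5p 0.15 and -0.22.

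Among the 5 DE entries of middle level, miR-935 was higher by 0.50 ± 0.23 and miR-345-3p by 0.38 ± 0.18. Lower were miR-344d-3-5p by -0.68 ± 0.27, miR-221-5p by -0.43 ± 0.17 and miR-340-3p by -0.39 ± 0.17. The call of miR-935 ended in 12 of 25 alternatives, with differences of 0.35 to 0.66, and that of miR-340-3p in 8 of 25. Of these, the groups did not overlap for miR-221-5p alone, at 5.62 to 5.99 log2 CPM in susceptible and 6.07 to 6.66 in resilient pools. The opposite strand of its hairpin, miR-221-3p, was at 11.66 to 11.78 against 11.41 to 11.89 and differed by 0.11 ± 0.13.

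The 12 DE entries under 3 log2 CPM had at most 106 reads in any of the compared pools, and their values are given as reads. miR-6976-5p had 6, 9 and 6 reads in susceptible pools 1, 2 and 4 and 0 in all 5 resilient pools. Set against a floor of 3 reads over the resilient group, it was at least 14.7-fold higher in susceptible pools. The data held only miRNAs with at least 1 CPM in at least 3 samples, and there were 3 susceptible pools. An entry of low level can have been kept through the group where it was high. Counts near 0 in the other group are therefore descriptions. miR-1249-5p had 4, 15 and 17 reads against 0, 0, 2, 4 and 0, and miR-7055-5p had 6, 8 and 8 against 0, 3, 0, 1 and 1.

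The entry miR-124-3p-1 belongs to the mature strand of miR-124, the classical neuronal miRNA, and had 7, 12 and 5 reads against 0, 0, 7, 0 and 0. miR-124 is known as an abundant brain miRNA, and at most 12 reads of a pool fell to this entry, the only one of its mature strand in the file. In the other direction miR-690 had 4, 0 and 0 reads in susceptible and 9, 8, 17, 9 and 6 in resilient pools. miR-7049-5p had 0, 1 and 0 against 4, 3, 21, 19 and 12, and miR-7004-5p had 1, 0 and 0 against 8, 6, 22, 8 and 4.

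miR-200a-3p, of the epithelial miR-200 family, had 8, 2 and 0 reads against 7, 9, 29, 31 and 17. It was not DE without susceptible pool 4, and miR-429-3p, from the same cluster, differed by 0.18. The remaining low DE entries were miR-363-5p and miR-6999-5p, which were higher, and miR-26a-2-3p and let-7f-1-3p, which were lower.

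Some miRNAs had no overlap between groups without being DE. miR-222-3p, which controls cell cycle inhibitors, was at 13.53, 13.44 and 13.34 log2 CPM in susceptible and 13.04 to 13.33 in resilient pools (difference 0.23 ± 0.10), under the fold change minimum. miR-30a-5p, among the 10 most abundant miRNAs, was at 15.32, 15.32 and 15.18 against 15.36 to 15.64 (difference -0.18 ± 0.10). The 10 most abundant miRNAs together took 45.2% ± 0.246 of the reads in susceptible (SD, n = 3), 44.9% ± 1.32 in resilient (n = 5) and 46.4% ± 0.437 in control pools (n = 5). The first 2 shares differed by 0.251 percentage points (exact permutation p = 0.714). miR-434-3p and miR-22-3p, at the top of this list, differed by -0.17 ± 0.12 and -0.10 ± 0.11.

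The ratio of the 5p to the 3p strand of a hairpin says which strand AGO2 held, and any single scaling factor of a pool cancels in it. Of 248 hairpins with both strands in the file, 13 (5.24%) had a DE ratio, 5 higher and 8 lower in susceptible pools, and all had an adjusted p of at least 0.879 in limma. For miR-485 the log2 ratio of 5p to 3p was -0.77, -0.05 and -0.30 in susceptible and 0.39, 0.13, -0.09, 0.33 and 0.52 in resilient pools. The groups overlapped only between susceptible pool 2 and resilient pool 3. The difference was -0.63 ± 0.21 (exact permutation p = 0.0357), and controls averaged -0.61. The 3p strand thus had more reads than the 5p strand in all 3 susceptible pools and fewer in 4 of 5 resilient pools.

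For miR-345 the ratio was -1.71, -1.49 and -1.48 in susceptible and -1.07, -1.05, -1.14, -0.79 and -0.90 in resilient pools, with no overlap. The difference was -0.57 ± 0.19 (exact permutation p = 0.0179), with controls at -1.77. Neither the miR-485 nor the miR-345 ratio was DE without susceptible pool 1. The ratios of the neighbors miR-221 and miR-222, transcribed together on the X chromosome, differed by -0.54 ± 0.23 and -0.44 ± 0.19, both toward the 3p strand in susceptible pools. The let-7f-1 ratio was higher by 1.16 ± 0.40 and that of miR-1249 by 3.73 ± 1.17, each through a strand with few reads. let-7d, of which only the 3p strand was DE, had a ratio difference of -0.22 ± 0.16 that did not pass.

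**Figure D3:**
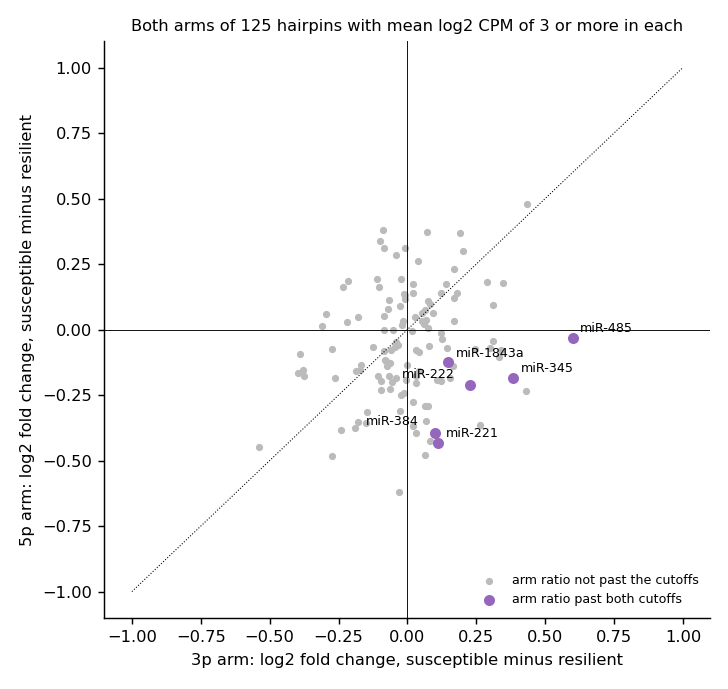
For 125 hairpins with a mean of at least 3 log2 CPM on both strands, the log2 fold change (susceptible minus resilient) of the 5p strand (vertical axis) is plotted against that of the 3p strand (horizontal axis), and the dotted line marks equal change. The 6 hairpins with a DE strand ratio, in purple, all lie below the line, with miR-485 at 0.60 on the 3p axis and -0.03 on the 5p axis.

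Levels were summed over miRNAs with the same seed, which act on overlapping targets. Of 69 seed families 4 (5.8%) were DE. The family of seed GAGGUUG, miR-672-5p and miR-377-5p, was at 11.36, 11.44 and 11.14 log2 CPM in susceptible and 10.96, 10.93, 10.82, 11.22 and 10.83 in resilient pools, a difference of 0.36 ± 0.10 (limma adjusted p = 0.168, Benjamini-Hochberg). miR-672-5p supplied most of that sum, since miR-377-5p was at 5.20 on average in resilient pools and differed by 0.12 ± 0.23. The family of seed UUUCAGU, the 3p strands of miR-30a and miR-30e, differed by -0.31 ± 0.11 (limma adjusted p = 0.347, Benjamini-Hochberg), and both members had negative differences (miR-30a-3p -0.26 ± 0.13). The family of seed GAGAACU, miR-146a-5p and miR-146b-5p, differed by -0.48 ± 0.21 (limma adjusted p = 0.556, Benjamini-Hochberg), with miR-146a-5p at -0.38 ± 0.23. The call ended in 12 of 21 alternatives, 7 of them with 1 pool left out, and the difference ran from -0.64 to -0.23. The fourth family, of miR-194-2-3p and miR-7055-5p, was higher by 1.37 ± 0.50 at a level of 0.37 to 3.14 log2 CPM.

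Groups of miRNAs known from other cell types or functions are given by their counts and medians, to be read beside all entries, of which 3.93% were DE (2.03% higher and 1.9% lower) with a median of -0.02. With so few members in most groups, 1 or 2 DE entries are no result about a group. Of 16 neuron-enriched entries 2 were DE, both higher (miR-124-3p-1 and miR-128-3p-1), with a median of 0.01. Of 12 activity-regulated entries 1 was DE (miR-485-3p), with a median of 0.06, and miR-132-3p, the CREB-induced miRNA, differed by 0.08 ± 0.13. None of 6 oligodendrocyte entries was DE (median -0.05), and miR-338-3p differed by -0.22 ± 0.18. Of 9 microglia and leukocyte entries miR-146b-5p was DE (median -0.10), and of 9 endothelial, mural and meningeal entries miR-126a-5p was DE (median -0.20), both lower. None of 6 erythroid entries was DE (median 0.04), and miR-451a, the erythroid miRNA, differed by -0.27 ± 0.20. Of 6 entries of the miR-200 and miR-183 clusters 1 was lower (median -0.44).

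No entry was DE among 9 of choroid plexus and ciliated epithelium (median -0.35), 7 of neuroendocrine cells (median 0.19) and 2 of muscle (median -0.17), whose summed level was 4.66 to 8.40 CPM in the compared pools. The summed neuron-enriched level was 53185 to 61184 CPM in susceptible and 45432 to 56632 CPM in resilient pools. It was led by miR-128-3p-1 and miR-132-3p, with means of 14.55 and 14.23 log2 CPM. Some entries of that list had few reads, among them miR-124-3p-1 at -1.75 and miR-9-5p at 0.26. The summed endothelial, mural and meningeal level was 21011 to 24550 CPM against 20777 to 31159 CPM. Their part in the DE entries was not tested. Of 171 miRNAs with numbers from 5000 up, which are mostly annotated from deep sequencing, 3 were higher and 2 lower, beside 3.93% DE over all entries, with a median of -0.02.

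**Figure D4:**
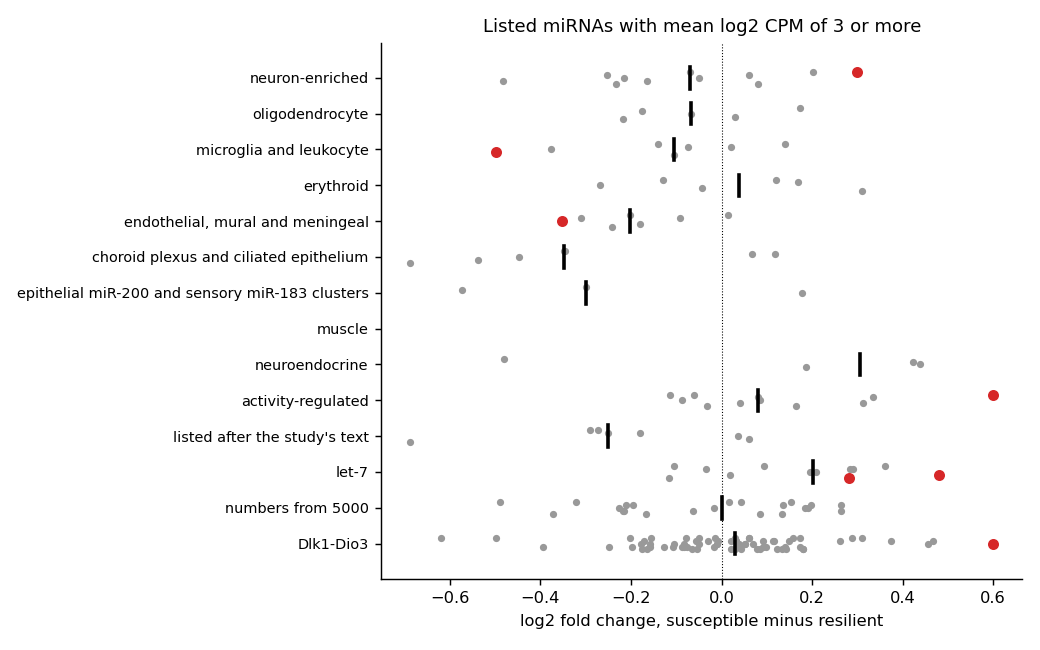
The log2 fold change (susceptible minus resilient, horizontal axis) is shown for each listed miRNA entry with a mean of at least 3 log2 CPM, 1 row per group of miRNAs, with DE entries in red and a black bar at the median of the plotted entries (no muscle entry reached that level). No row has more than 2 red points, and in the choroid plexus and ciliated epithelium row 2 entries lie right of 0.

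Susceptible pool 4 stood apart from susceptible pools 1 and 2. Its mean rank correlation with its own group was 0.978, the lowest of the 13 pools, and its estimated weight of 0.466 in a weighted fit was also the lowest. Its mean rank correlation with the resilient pools was higher, at 0.985. That value was not particular to it, since susceptible pools 1 and 2 correlated with the resilient pools at 0.984 and 0.985. It was not the most extreme pool on every measure, since it was the highest or lowest of the 13 pools for 23 of the 171 abundant entries, against 64 for resilient pool 2 and 44 for control pool 1. Of the 171 abundant entries 12 differed by at least 1 log2 unit between pool 4 and the mean of pools 1 and 2, 4 higher and 8 lower in pool 4, and none differed that much between pools 1 and 2. The widest gap was in miR-667-3p of the Dlk1-Dio3 region, at 11.04 and 11.12 in pools 1 and 2 and 8.57 in pool 4, with resilient pools at 9.92 to 10.40. Its difference was 0.04 with pool 4 and 0.88 ± 0.14 without it (limma adjusted p = 0.00607, Benjamini-Hochberg). miR-667-3p was named after its values had been seen.

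Leaving out susceptible pool 4 kept pools 1 and 2 alone as the susceptible group. 81 of the 788 entries were then DE, 34 higher and 47 lower, against 31 with all pools. 24 of the 31 DE entries remained among them, all in the same direction, and miR-667-3p was the only entry with an adjusted p under 0.05. miR-485-3p then differed by 0.70 ± 0.15 (limma adjusted p = 0.0629, Benjamini-Hochberg), miR-672-5p by 0.45 ± 0.12, let-7c-5p-1 by 0.40 ± 0.13, and miR-30e-3p by -0.45 ± 0.12. let-7c-5p-2, miR-128-3p-1, miR-384-5p, miR-200a-3p, miR-344d-3-5p, miR-363-5p and miR-6999-5p were no longer DE, with the same signs as before. Their differences were then 0.22, 0.30, -0.32, -1.38, -0.61, 2.83 and 2.02 in this order.

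**Figure D5:**
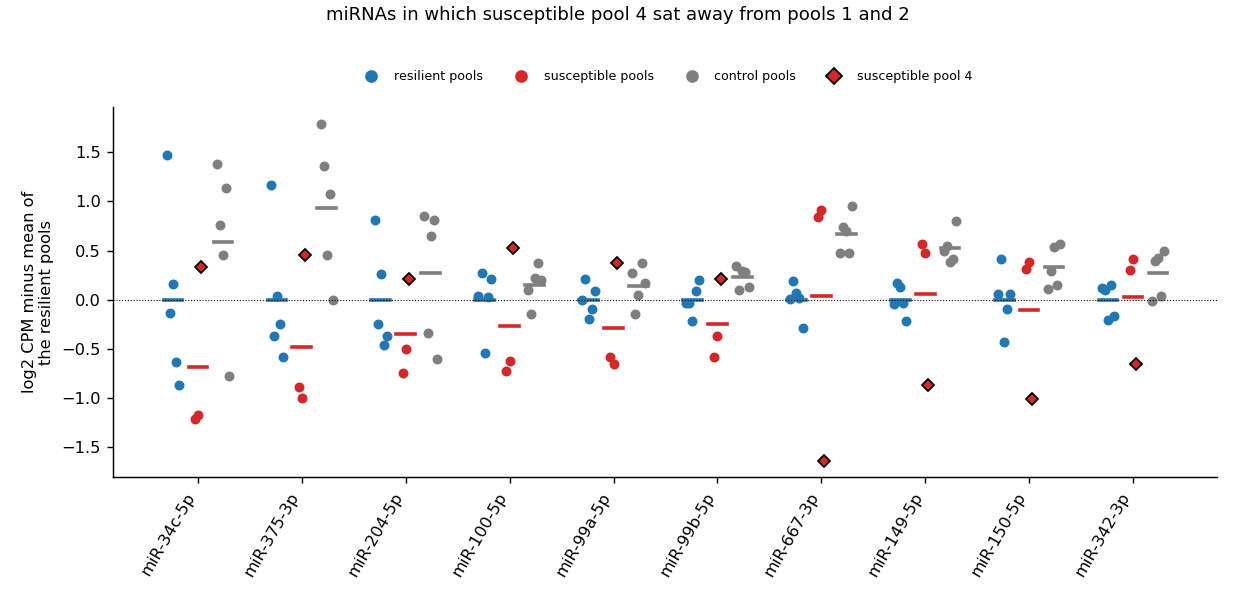
Each point is 1 pool, plotted as its log2 CPM minus the resilient mean (vertical axis), for 10 miRNAs chosen because susceptible pool 4 (diamond) sat away from susceptible pools 1 and 2, with susceptible pools in red, resilient in blue, control in gray and group means as bars. Pool 4 lies above pools 1 and 2 for miR-34c-5p, miR-375-3p, miR-204-5p and the 3 miR-99/100 members, and below them for miR-667-3p, miR-149-5p, miR-150-5p and miR-342-3p.

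A list of 8 entries followed the text of the study on BNST, which had chosen its miRNAs on these samples, so their direction is not independent evidence. The study gives miR-126a without a strand, and the list held miR-126a-3p, while miR-126a-5p was DE as given above. miR-99a-5p was listed as the remaining member of the seed family of miR-99b and miR-100. The study also names miR-3076, which was not in the list. Its entry miR-3076-3p differed by -0.27 ± 0.45. None of the 8 was DE with all pools, beside 3.93% of all entries, and their median difference was -0.21. The calls of the study were made after a correction for surrogate variables that is not in the values used here. miR-99b-5p, which shares the miR-99/100 seed and is encoded beside let-7e on chr17 (17830194-17830215), was at 12.05, 12.26 and 12.85 log2 CPM in susceptible pools. Resilient pools held 12.60, 12.60, 12.42, 12.72 and 12.83. Susceptible pools 1 and 2 lay below all resilient pools, and susceptible pool 4 lay above all of them. The difference was -0.25 ± 0.14 (exact permutation p = 0.286), the susceptible minus control difference -0.48 and the resilient minus control difference -0.23.

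miR-99a-5p read 7.63, 7.57 and 8.59 against 8.02 to 8.43 in resilient pools, a difference of -0.29 ± 0.19. miR-100-5p read 8.85, 8.95 and 10.10 against 9.02 to 9.84, a difference of -0.27 ± 0.23. The 3 members thus had the same arrangement, with pools 1 and 2 below and pool 4 above every resilient pool. The whole seed family differed by -0.25 ± 0.15 (exact permutation p = 0.321). Without susceptible pool 4, 81 of all 788 entries were DE, against 31 with all pools, and all 3 members were among them. miR-99b-5p then differed by -0.48 ± 0.12 (limma adjusted p = 0.128, Benjamini-Hochberg), miR-99a-5p by -0.62 ± 0.15 and miR-100-5p by -0.67 ± 0.18. With all pools kept, they were also weighted by how closely each followed its group in these same values. miR-99b-5p then differed by -0.41, miR-99a-5p by -0.45 and miR-100-5p by -0.51, and all 3 were DE. Susceptible pool 4 had the lowest weight, 0.466, so this fit is not separate from leaving that pool out. miR-99b-5p was also DE with quantile scaling at -0.37, and miR-99a-5p and miR-100-5p with the first residual component as covariate. That component came from the residuals of the group fit on these values, so it left the differences unchanged and altered only their estimated spread. Without susceptible pool 4 the family differed by -0.51 ± 0.11 (limma adjusted p = 0.0301, Benjamini-Hochberg), and 10 of 69 families were DE there.

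miR-34c-5p, a miRNA of ciliated epithelium that is also induced by p53, was at 9.48, 9.51 and 11.02 in susceptible and 12.16, 10.56, 10.85, 10.06 and 9.83 in resilient pools. Its difference was -0.69 ± 0.48 with all pools and -1.20 ± 0.50 without susceptible pool 4, where it was 1 of 81 DE among 788 entries. miR-126a-3p was also DE without that pool, at -0.31 ± 0.15. The other 3 listed miRNAs did not pass either way. With all pools, miR-15b-5p differed by 0.04 ± 0.23, miR-33-5p by 0.06 ± 0.24 and miR-18a-5p by 0.20 ± 0.85.

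The level of choroid plexus miRNAs moved with this pool. The summed level of the 9 choroid plexus and ciliated epithelium entries, led by miR-204-5p, was 11515, 13487 and 23125 CPM in susceptible pools 1, 2 and 4. In resilient pools it was 36588, 16761, 23644, 14266 and 14958 CPM, and in control pools 12970 to 37161 CPM. Ttr, the transthyretin transcript that defines choroid plexus, was measured in AGO2-bound mRNA of pools with the same labels. It was at -0.19, 0.24 and 5.04 log2 CPM in susceptible pools 1, 2 and 4 and at 6.08, 3.50, 6.37, 1.79 and 2.00 in resilient pools. The 3 defeated pools with the highest summed choroid plexus miRNA level, susceptible pool 4 and resilient pools 1 and 3, were also the 3 with the highest Ttr. Of the other choroid plexus and ependymal genes checked, Kl, Kcnj13 and Ccdc153 had the same 3 pools highest. Folr1, Clic6, Enpp2, Foxj1 and Rarres2 did not. Foxj1 was at 1.99 in susceptible pool 4, its lowest value in any pool. Clic6 was at 4.17 there, below susceptible pool 1 at 4.44. The sources do not say that miRNA and mRNA libraries with the same label came from the same immunoprecipitate. Without susceptible pool 4 the median of these miRNAs was -0.63, against 0.02 over all entries. miR-34b-3p and miR-34c-5p were then lower and among the 81 DE of 788 entries. The part of choroid plexus in the differences of these miRNAs was not tested.

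The base composition of a miRNA moved with some pools as well. Over 381 miRNAs with a sequence and a mean of at least 3 log2 CPM, Spearman's rho across miRNAs between GC content and the difference was 0.264. Within pools, rho between GC content and the deviation from the mean was -0.395 in susceptible pool 4, 0.206 and 0.271 in susceptible pools 1 and 2, and from -0.391 to 0.115 in resilient pools. miRNAs of 1 library share its depth and preparation, and these values are descriptions. Median GC content was 40.9% for the 8 DE miRNAs of this set that were lower, 50.0% for the 9 that were higher and 50.0% for all. With the GC trend taken out of each pool, 27 of 686 entries were DE, 17 higher and 10 lower, and miR-872-5p, miR-340-3p and miR-935 were no longer among them. let-7c-5p-1 then had an adjusted p of 0.0361 in limma.

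mRNAs bound to AGO2 were measured in the same tissue, and those with a site for a DE miRNA were compared with the rest. A site is a match of letters and does not show that an mRNA was bound through that miRNA. An 8-base site, the reverse complement of the seed followed by A, was searched on the transcript strand of annotated 3′ untranslated regions of 13937 genes found in AGO2-bound mRNA, in which 4 susceptible and 5 resilient pools were measured. For miR-485-3p the site GTATGACA occurred in 259 genes (1.86%), and their median difference was 0.010 log2 units against 0.011 for genes without it. For let-7c-5p the site CTACCTCA occurred in 620 genes (4.45%), with medians of 0.028 and 0.011. For miR-30e-3p the site ACTGAAAA occurred in 987 genes (7.08%), with medians of -0.009 and 0.013. The remaining abundant DE miRNAs with a sequence had medians between -0.007 and 0.008 for genes with a site. In that data 355 of 16587 mRNAs (2.14%) were DE and none had an adjusted p under 0.05 in limma, with 401 at an unadjusted p under 0.05.

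Of the targets that the study named for miR-99b, Igf1r, the receptor of insulin-like growth factor, was at 8.15 to 8.36 log2 CPM in susceptible and 8.18 to 8.87 in resilient pools, a difference of -0.25 ± 0.14. Ppp3ca, a catalytic subunit of calcineurin, differed by -0.42 ± 0.20, Ntrk2, the BDNF receptor, by -0.13 ± 0.09, Cldn11, a myelin claudin, by -0.13 ± 0.12, and Epdr1 by 0.07 ± 0.11. None was DE. The 7-base match TACGGGT to the miR-99/100 seed was present in the untranslated regions of Igf1r, Epdr1 and Ppp3ca and was not found in those of Ntrk2 and Cldn11. The transcripts of the Argonaute genes, Dicer1 and Drosha differed by -0.21 to 0.02 log2 units, and none was DE.

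Blood of mice of the same strain was measured in 5 susceptible and 5 resilient animals. Of the 31 DE entries 9 were in the blood miRNA data, where the 2 let-7c-5p entries share 1 value that is thus counted for both. None was DE there and 3 of the 9 had the same sign. 13 of 299 blood miRNAs (4.35%) were DE, and none had an adjusted p under 0.05 in limma, with 14 at an unadjusted p under 0.05. In blood let-7c-5p differed by -0.08 ± 0.28, miR-146b-5p by -0.08 ± 0.18 and miR-672-5p by 0.20 ± 0.58.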

How the data were processed

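The authors immunoprecipitated AGO2 from pooled BNST, made small RNA libraries (TruSeq Small RNA kit), sequenced them on a NextSeq 500 and trimmed the reads. They quantified miRNAs with miRDeep2 against miRBase, with Bowtie 1.1.1 and the GRCm38 genome, kept miRNAs with at least 1 CPM in at least 3 samples, and deposited log2 CPM values from limma's voom with a prior count of 0.5 reads. Their correction for surrogate variables is not in these values, since each of them gave back a whole number of reads within 0.001 reads. AGO2-bound mRNA and blood miRNA were deposited in the same unit. Per the study's methods 1 sample was left out for a failed library. There was no input library, so a level is a share of AGO2-bound reads, and intervals cover the spread between pools.

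Here the deposited log2 CPM of all 13 pools was fitted with limma 3.58.1 in R 4.3.3 (empirical Bayes with a mean-variance trend, no covariate), with the contrast susceptible minus resilient. An entry was DE with a fold change of 1.2 or more and p under 0.05, the cutoffs of the study, and p-values were adjusted over all 788 entries by the Benjamini-Hochberg method. The exact permutation test over pools was two-sided, with 56 splits. Strand ratios and summed seed families were fitted in the same way. The script was tested on simulated data before use. Sequences and positions came from RefSeq and GENCODE tables of GRCm38, matched by miRNA name. Python 3.11.15 with matplotlib 3.10.9 made the figures.

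miRNAs were named by a rule: the 12 DE entries of smallest p in each direction, the 5 of smallest p at a mean of at least 8 log2 CPM, the 10 most abundant, the 8 listed after the study's text on BNST, the 3 most abundant and any DE member of each list, the 5 DE hairpins and families of smallest p, and the 5 most abundant without overlap. The other DE entries and members outside the rule, such as miR-667-3p, miR-3076-3p, opposite strands and family members, were named after their values were seen. The members and lists were chosen with earlier results of these data known. The 10 columns of the tables that match no sample used here were left out. The alternatives were the compared groups alone, no trend, sample weights, precision weights, another prior count, quantile and median-of-ratios scaling, a level filter, a replicate block, a residual component as covariate and leaving out each pool. Removing a GC trend and summing the entries of 1 mature miRNA were added after seeing the data.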

Additional observations from a re-analysis of the deposited data

Results flagged for a closer look

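In 41 groups of pools that were checked for a sample far from the others, 1 was found. miR-384-5p was at 9.12 log2 CPM in resilient pool 3, against 9.79 to 9.92 in the other 4 resilient pools, and the gap was 0.839 of the whole range of the group. Chance gives about 1 such group in 20.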

How the results depend on the processing

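DE miRNA entries numbered 31 with all pools, 56 with sample weights, and 22 (without susceptible pool 2) to 81 (without susceptible pool 4) as each pool was left out in turn. The other alternatives gave 21 of 430 entries at a mean of at least 3 log2 CPM and 24 to 36 otherwise, among them 29 with the entries of 1 mature miRNA summed. An adjusted p under 0.05 was reached by 0 to 1 entries as pools were left out, miR-667-3p without susceptible pool 4. It was also reached by 1 entry, miR-485-3p, with sample weights (adjusted p = 0.0458) and with the first residual component as covariate (adjusted p = 0.0255). With the GC trend removed, let-7c-5p-1 reached it. All of these are limma p-values with Benjamini-Hochberg adjustment. Sample weights and the residual component were estimated from these same values. The component came from the residuals of the group fit, so it left the difference of miR-485-3p at 0.60 and altered only its estimated spread. A smaller p from it is therefore no separate support. miR-485-3p, let-7c-5p-1, miR-672-5p, miR-30e-3p, miR-6976-5p, miR-1249-5p, miR-690, miR-7049-5p, miR-7004-5p, the miR-1249 strand ratio and the GAGGUUG family were DE under all alternatives in which they could be fitted. The limit from the filter on 1 CPM in at least 3 samples holds for those of low level under every alternative. DE strand ratios numbered 13, 7 at a mean of at least 3 log2 CPM and 9 to 21 as pools were left out, most without susceptible pool 4. DE families numbered 4, and 2 (without susceptible pool 1) to 10 (without susceptible pool 4). The GAGGUUG family had an adjusted p of 0.0247 with quantile scaling, 0.0188 without resilient pool 4 and 0.0301 without susceptible pool 4, and 0.168 with all pools. The difference in the share of the 10 most abundant miRNAs was 0.251 percentage points, -0.910 for the 20 most abundant, and -0.103 (without resilient pool 1) to 0.788 as pools were left out.

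With the pool number as a replicate block, 31 entries, 7 strand ratios and 3 families were DE. The same-numbered pools did not deviate together (correlations of -0.08, -0.06 and -0.18 for numbers 1, 2 and 4), so the numbers were not taken to pair the pools. With the block miR-18a-5p moved to -0.13 and miR-338-5p to -0.0016 log2 units.

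Among the entries named by the rule, only those that were not DE changed sign. The DE entries outside the rule, miR-328-3p, miR-345-3p, miR-363-5p, miR-384-5p, miR-488-3p and let-7f-1-3p, were not followed through all alternatives. miR-92b-3p was at 0.0014 with median-of-ratios scaling, miR-15b-5p at -0.12, miR-338-5p at -0.027 and miR-150-5p at 0.17 with sample weights, and miR-206-3p at -0.051 with quantile scaling and -0.095 with precision weights. As pools were left out, differences ran from -0.11 to 0.091 for miR-92b-3p, -0.16 to 0.0073 for miR-125a-5p, -0.20 to 0.24 for miR-15b-5p, -0.14 to 0.56 for miR-18a-5p, -0.069 to 0.21 for miR-33-5p, -0.015 to 0.16 for miR-132-3p, -0.19 to 0.53 for miR-149-5p, -0.24 to 0.077 for miR-219a-2-3p and -0.12 to 0.10 for miR-338-5p. They ran from -0.35 to 0.35 for miR-150-5p, -0.17 to 0.36 for miR-342-3p, -0.14 to 0.020 for miR-486a-5p, -0.14 to 0.32 for miR-429-3p, -0.40 to 0.40 for miR-206-3p, -0.13 to 0.030 for miR-485-5p, -0.011 to 0.23 for miR-6944-3p and -0.14 to 0.033 for miR-7080-3p. The cause of these changes was not tested. Depth limits entries under 3 log2 CPM, where the median SE was 0.91, and the number of susceptible pools limits all of them.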
